A study of Homo sapiens with 22 samples.

Results

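Box H/ACA small nucleolar RNAs (snoRNAs) were followed in 2 human colorectal cancer cell lines after transcription was blocked with actinomycin D, and in 1 of the lines after knockdown of the double-stranded RNA-binding protein Staufen1. They were taken as the genes whose symbol is SNORA with a number and at most 1 letter and whose mean RSEM expected count reached 10 over the 3 untreated (0 h) libraries of either line. Of 406 SNORA rows among the 57820 rows of the actinomycin D tables, 67 met this rule, and 279 of the others were at 0 in all 18 libraries. The last members inside the floor were SNORA4 and a copy of SNORA40, with means of 10.01 and 10.13 counts in their higher line. The nearest outside it were SNORA65 at 9.33 and another SNORA40 copy at 9. Members were thus selected on their 0 h counts. The floor was reached in both lines by 53 members, in LS180 only by 2 and in HCT116 only by 12. Comparisons with 0 h use the libraries that set the floor, so their counts of members describe the set and support nothing beyond it, and they are also given for the 53 alone. The comparison of 4 h with 2 h does not use those libraries. SNORA8, SNORA48, SNORA21B, SNORA21, SNORA34, SNORA54, SNORA7B, SNORA53, SNORA64, SNORA74A and SNORA23, which are followed below, had 0 h means of 59.1 counts or more in each line, far from the floor.

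LS180 and HCT116 cells each received 5 µg/ml actinomycin D for 0, 2 or 4 h, with 3 total-RNA libraries per line and time (18 libraries, 47.8 to 61.4 Mcounts each, with 1 Mcount being 1e6 expected counts). LS180 cells were also transfected for 72 h and again for 72 h with control small interfering RNA (siCTRL) or with small interfering RNA against STAU1 (siSTAU1), with 2 poly(A)-selected libraries each (23.7 to 26.7 Mcounts). The series concerns the repression of FOXA1-regulated transcripts by Staufen1. All groups share the column-based extraction, and the labels do not say whether replicates came from separate cultures. The p-values therefore weigh only library-to-library spread, which may be technical. Each line is a single line, and differences between them are differences between these 2 lines only. In the 18 actinomycin D libraries the summed level of 5 epithelial markers was 3002 to 4072 CPM in LS180 and 3250 to 3902 CPM in HCT116, with KRT20 low in both (means of 0.305 and 1.39 CPM). The summed level of 5 intestinal markers ran from 766 to 997 CPM (expected counts per 1e6 counts of the scaled library total) in LS180 and from 4.34 to 15.3 CPM in HCT116, where CDX1 was at 0. The summed level of 5 goblet and secretory markers was 1096 to 1833 CPM in LS180 and at most 0.225 CPM in HCT116, with SPINK4 at 0. Fibroblast, immune and endothelial lists summed to at most 2.22 CPM in any of these libraries. In bulk RNA, fewer cells of a type and less RNA per cell cannot be told apart.

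Box H/ACA snoRNAs fold into a pair of hairpins. A hinge between them carries the H box (ANANNA, where N is any base), and the tail carries an ACA a few bases from the 3′ end. Most are cut out of introns of host genes after splicing and join dyskerin (DKC1), NHP2, NOP10 and GAR1 in a particle that converts chosen uridines of ribosomal RNA to pseudouridine. SNORA73 (U17) is an exception that takes part in cleavage of the ribosomal RNA precursor. Actinomycin D slots into DNA and blocks RNA polymerases, so that RNAs made before the drug are followed as they are lost. Every level below is CPM scaled by trimmed mean of M-values, and so is relative to the transcripts that remain.

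The sequences below, from the GENCODE release 29 transcripts (GRCh38) and matched by gene identifier, are the most abundant member and 8 of the members on which the results turn. Capitals mark one match to the H box near the hinge and, where present, the ACA that ends 3 bases before the 3′ end of the annotated transcript.
SNORA73B: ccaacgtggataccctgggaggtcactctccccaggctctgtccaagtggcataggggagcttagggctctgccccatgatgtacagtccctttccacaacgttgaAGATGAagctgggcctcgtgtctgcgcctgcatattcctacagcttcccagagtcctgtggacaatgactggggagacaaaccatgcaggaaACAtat
SNORA8: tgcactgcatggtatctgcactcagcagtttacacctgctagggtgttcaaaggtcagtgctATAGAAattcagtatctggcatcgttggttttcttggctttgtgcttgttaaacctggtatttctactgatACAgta
SNORA48: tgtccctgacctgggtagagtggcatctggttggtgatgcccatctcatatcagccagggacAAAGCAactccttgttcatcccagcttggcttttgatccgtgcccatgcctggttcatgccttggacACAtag
SNORA34: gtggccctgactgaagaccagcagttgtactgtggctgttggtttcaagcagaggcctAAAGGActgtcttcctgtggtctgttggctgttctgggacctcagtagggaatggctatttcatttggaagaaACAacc
SNORA21B: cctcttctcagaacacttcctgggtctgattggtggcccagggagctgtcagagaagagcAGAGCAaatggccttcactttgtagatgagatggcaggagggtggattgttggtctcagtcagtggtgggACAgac
SNORA21: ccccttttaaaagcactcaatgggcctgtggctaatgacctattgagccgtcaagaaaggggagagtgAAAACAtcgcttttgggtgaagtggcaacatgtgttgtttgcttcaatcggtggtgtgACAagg
SNORA53: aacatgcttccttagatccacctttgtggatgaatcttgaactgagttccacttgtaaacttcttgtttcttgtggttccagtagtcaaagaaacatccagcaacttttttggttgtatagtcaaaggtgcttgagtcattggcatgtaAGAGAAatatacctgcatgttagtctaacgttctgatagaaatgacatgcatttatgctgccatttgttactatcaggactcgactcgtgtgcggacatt
SNORA23: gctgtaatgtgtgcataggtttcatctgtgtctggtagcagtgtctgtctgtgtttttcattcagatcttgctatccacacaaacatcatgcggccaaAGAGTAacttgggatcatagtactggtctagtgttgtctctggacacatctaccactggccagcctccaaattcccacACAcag
SNORA64: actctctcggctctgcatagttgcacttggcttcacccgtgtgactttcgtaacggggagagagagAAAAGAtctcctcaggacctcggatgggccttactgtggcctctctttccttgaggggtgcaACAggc

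SNORA73B lay in an intron of the noncoding host gene SNHG3 (chr1:28508559-28508762, plus strand). SNORA8 overlapped an exon of TAF1D (chr11:93732361-93732499, minus strand) and SNORA48 an exon of EIF4A1 (chr17:7574713-7574847, plus strand). SNORA34, which the current annotation calls SNORA2C, lay in an intron of KANSL2 (chr12:48654382-48654518, minus strand). A pair of rows carried the symbol SNORA21, both within RPL23 on the minus strand and both overlapping an annotated exon. The first (ENSG00000252699, chr17:38851524-38851659) is named SNORA21B in release 29 and is called that here, and the other (ENSG00000199293, chr17:38852863-38852994) remains SNORA21. SNORA53 overlapped an exon of SLC25A3 (chr12:98599635-98599883, plus strand) and SNORA64 an exon of RPS2 (chr16:1962973-1963106, minus strand). SNORA23 lay in an intron of IPO7 (chr11:9428773-9428954, plus strand).

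The sequences bore the hallmarks of the class. Of 63 members with an annotated snoRNA sequence, 47 (74.6%) had ACA exactly 3 bases from the end. ANANNA lay within the middle 40% of the sequence in 60 (95.2%), and 46 had both. Of 21 box C/D snoRNAs past the same count floor, 0 had the terminal ACA and 8 (38.1%) had ANANNA in that window. Only the transcript strand was searched. The window grows with sequence length and box C/D lengths are not given, so the ANANNA shares are not directly comparable. Members were 122 to 249 bases long, with a median of 135, and their GC content ran from 32.5% to 63.8%. A host gene on the same strand was found for 62 members, in 49 genes: 35 members sat in other protein-coding genes, 12 in ribosomal protein genes, 11 in noncoding hosts and 4 in translation factor genes. Of these, 38 lay wholly in an intron and 24 overlapped an annotated exon, so that reads of a host transcript could be counted to them. Expected counts were whole numbers in all 18 libraries (within 0.005) for 32 members and were split with other features for 35.

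Together the members held 0.0618% to 0.152% of all counts. One RNA dominated: SNORA73B took 36.1% to 53.4% of the H/ACA counts of a library. Its mean over the 18 libraries was 450 CPM, or 221 CPM per 100 bases of transcript. SNORA63 (ENSG00000200320, in EIF4A2) followed at 88.0 CPM per 100 bases, then SNORA48 at 39.2, SNORA52 at 28.8, SNORA70 at 20.7, SNORA71A at 19.1, SNORA57 at 19.0 and SNORA79 at 16.2. At the other end, 27 of the 67 members had a mean under 1 CPM, and 14 had a mean of 10 CPM or more. Between 47 and 64 members had at least 10 counts in a given library. Both members that failed the filter on low counts were rows named SNORA74 (ENSG00000223111 and ENSG00000223182), which leaves 65 in the tests.

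Libraries of the same group did not always sit together, and this touches the results below. In LS180 at 4 h, the library numbered 1 held 0.0912% of its counts in H/ACA members, against 0.150% and 0.152% in those numbered 2 and 3. Short noncoding RNAs of all kinds took 17.3% of counts in the first and 22.5% and 25.8% in the others. In HCT116, box C/D snoRNAs took 1.36% and 1.93% of counts in the 0 h libraries numbered 2 and 3 and 1.72% and 1.55% in the 2 h libraries of those numbers. They took 0.911% and 0.726% in the libraries numbered 1 at these times and 0.719% to 0.935% at 4 h. What part this played in the member values was not tested. The main counts or medians below are therefore also given without the LS180 4 h libraries numbered 2 and 3 or without the HCT116 libraries numbered 1. Both checks were chosen after seeing the data. The check in LS180 leaves 1 LS180 4 h library, which is then assumed to vary like the libraries of the other groups.

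**Figure D1:**
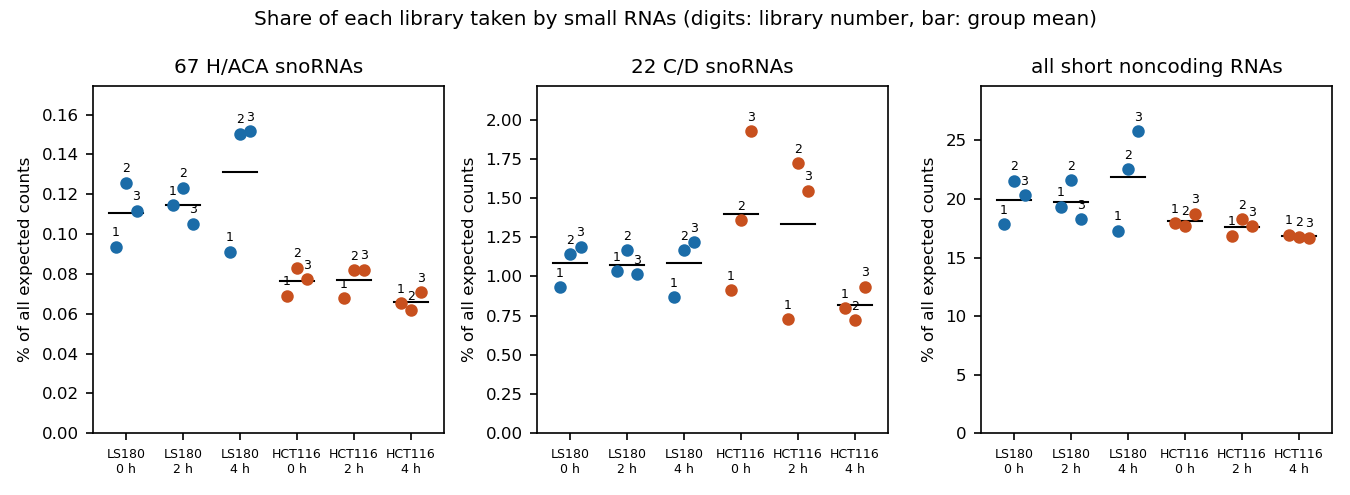
Share of each library's expected counts (percent, vertical axes from 0) held by the 67 H/ACA snoRNAs, 22 box C/D snoRNAs and all short noncoding RNAs (1 panel each) by line and hours of drug, each numbered point 1 library and each bar a group mean. The LS180 4 h libraries numbered 2 and 3 stand at 0.150% and 0.152%, above the one numbered 1 at 0.0912%, and in the H/ACA panel HCT116 libraries lie between 0.0618% and 0.0831%.

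**Figure D2:**
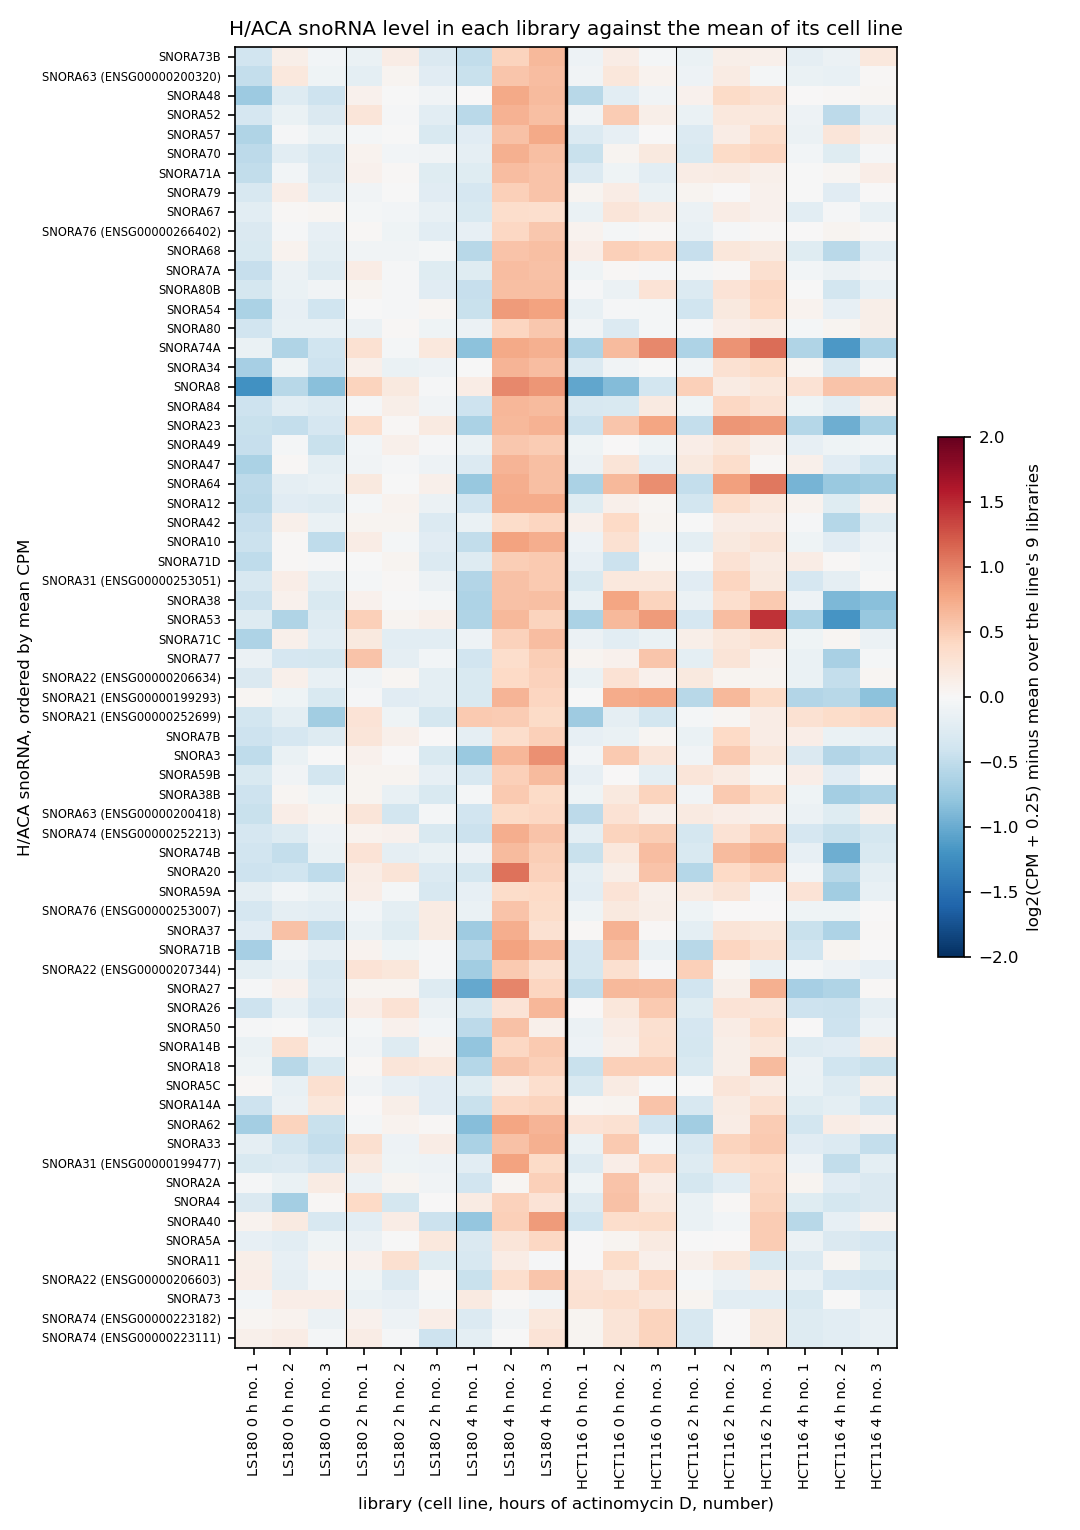
Heat map of all members, tested or not (rows), in the 18 libraries (columns), coloured by log2(CPM + 0.25) minus the member's mean in that line. In LS180 most rows are high in the 4 h libraries numbered 2 and 3, and in HCT116 a block of rows is high in the 0 h and 2 h libraries numbered 2 and 3.

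The clearest change was the rise of SNORA8 in both lines. In LS180 it stood at 3.13, 5.05 and 4.13 CPM at 0 h, at 10.4, 8.67 and 7.46 CPM at 2 h, and at 8.39, 15.04 and 14.15 CPM at 4 h. In HCT116 it stood at 2.28, 2.60 and 3.77 CPM at 0 h, at 7.0, 5.57 and 5.82 CPM at 2 h, and at 6.07, 7.46 and 7.41 CPM at 4 h. In each line every treated library was above every 0 h library, while the 2 h and 4 h libraries overlapped. Against 0 h, the log2 change was 1.11 (SE 0.22) at 2 h and 1.61 (SE 0.22) at 4 h in LS180, with adjusted p of 0.000496 and 3.65e-06 (edgeR quasi-likelihood test, Benjamini-Hochberg over 17256 genes). In HCT116 it was 1.10 (SE 0.23, adjusted p 0.0013) at 2 h and 1.29 (SE 0.23, adjusted p 0.000115) at 4 h by the same edgeR test. The 2 h and 4 h comparisons share the 0 h libraries, which also set the count floor. SNORA8 rose within the H/ACA counts as well, a measure that library scaling does not touch. It made up 0.349% to 0.406% of them at 0 h and 0.758% to 0.923% at 4 h in LS180, and 0.336% to 0.516% and 0.948% to 1.19% in HCT116. The host TAF1D, a subunit of the RNA polymerase I selectivity factor, had a log2 change of -0.12 and -0.21 at 2 h in LS180 and HCT116, neither called. At 4 h TAF1D rose in LS180 (0.33, adjusted p 0.0162, edgeR) and was at -0.12 in HCT116 (adjusted p 0.427). SNORA8 overlaps a TAF1D exon, and how far reads of that exon enter its counts was not tested.

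SNORA48 and SNORA21B also rose against 0 h. SNORA48 in LS180 went from 35.7, 49.8 and 44.4 CPM at 0 h to 63.1, 59.0 and 56.2 CPM at 2 h and 60.0, 100.5 and 91.7 CPM at 4 h. Every treated LS180 library was above all 0 h libraries. The log2 change was 0.46 (SE 0.15, adjusted p 0.0262) at 2 h and 0.96 (SE 0.15, adjusted p 3.09e-05) at 4 h, by edgeR. The 2 h call was lost in 4 of 17 alternatives, with the lowest value of 0.22 (adjusted p 0.286, edgeR) when scaled to ribosomal protein genes. In HCT116 SNORA48 stood at 29.1, 36.8 and 40.6 CPM at 0 h, 45.6, 56.1 and 53.1 CPM at 2 h, and 43.1, 43.5 and 43.8 CPM at 4 h. Here too all treated libraries exceeded the 0 h ones, but only the 2 h rise was called (0.54, SE 0.16, adjusted p 0.0133, edgeR), and at 4 h the value was 0.29 (adjusted p 0.13). That 2 h call was lost in 5 of 17 alternatives, down to 0.31 (adjusted p 0.146, edgeR) under ribosomal scaling. Its host EIF4A1, a translation initiation helicase, rose by 0.24 on the log2 scale in LS180 (adjusted p 0.0358) and by 0.23 in HCT116 (adjusted p 0.0418) at 4 h, by edgeR. SNORA48 overlaps an EIF4A1 exon, and how far reads of that exon enter its counts was not tested.

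SNORA21B was a minor RNA in both lines. It stood at 1.13, 1.301 and 0.838 CPM at 0 h, 1.89, 1.42 and 1.14 CPM at 2 h and 2.31, 2.26 and 2.05 CPM at 4 h in LS180, and at 0.974, 1.52 and 1.302 CPM, 1.70, 1.80 and 1.96 CPM, and 2.22, 2.33 and 2.40 CPM in HCT116. The 4 h libraries lay above all 0 h libraries in each line, and in LS180 the 2 h libraries overlapped those at 0 h. The log2 change at 4 h was 1.02 (SE 0.19, adjusted p 0.000171) in LS180 and 0.88 (SE 0.19, adjusted p 0.00066) in HCT116, by edgeR. Scaled to ribosomal protein genes, both became 0.48 and were no longer called, with adjusted p of 0.0633 and 0.0718. SNORA21, in another stretch of the same host RPL23, went the other way in HCT116. It stood there at 1.44, 2.59 and 2.66 CPM at 0 h, 0.896, 2.41 and 1.98 CPM at 2 h, and 0.883, 0.911 and 0.710 CPM at 4 h. All 4 h values were below all 0 h values, and the 2 h library numbered 1 sat among the 4 h values. SNORA21 fell by 1.41 on the log2 scale from 0 h to 4 h (SE 0.33, adjusted p 0.00141, edgeR), a call that held under all 17 alternatives (-1.81 to -1.26). RPL23 itself, a protein of the large ribosomal subunit, rose at 4 h in both lines (0.54 in LS180 and 0.41 in HCT116, adjusted p 5.22e-07 and 2.11e-05, edgeR). SNORA21B and SNORA21 each overlap an RPL23 exon, and how far RPL23 reads enter their counts was not tested.

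**Figure D3:**
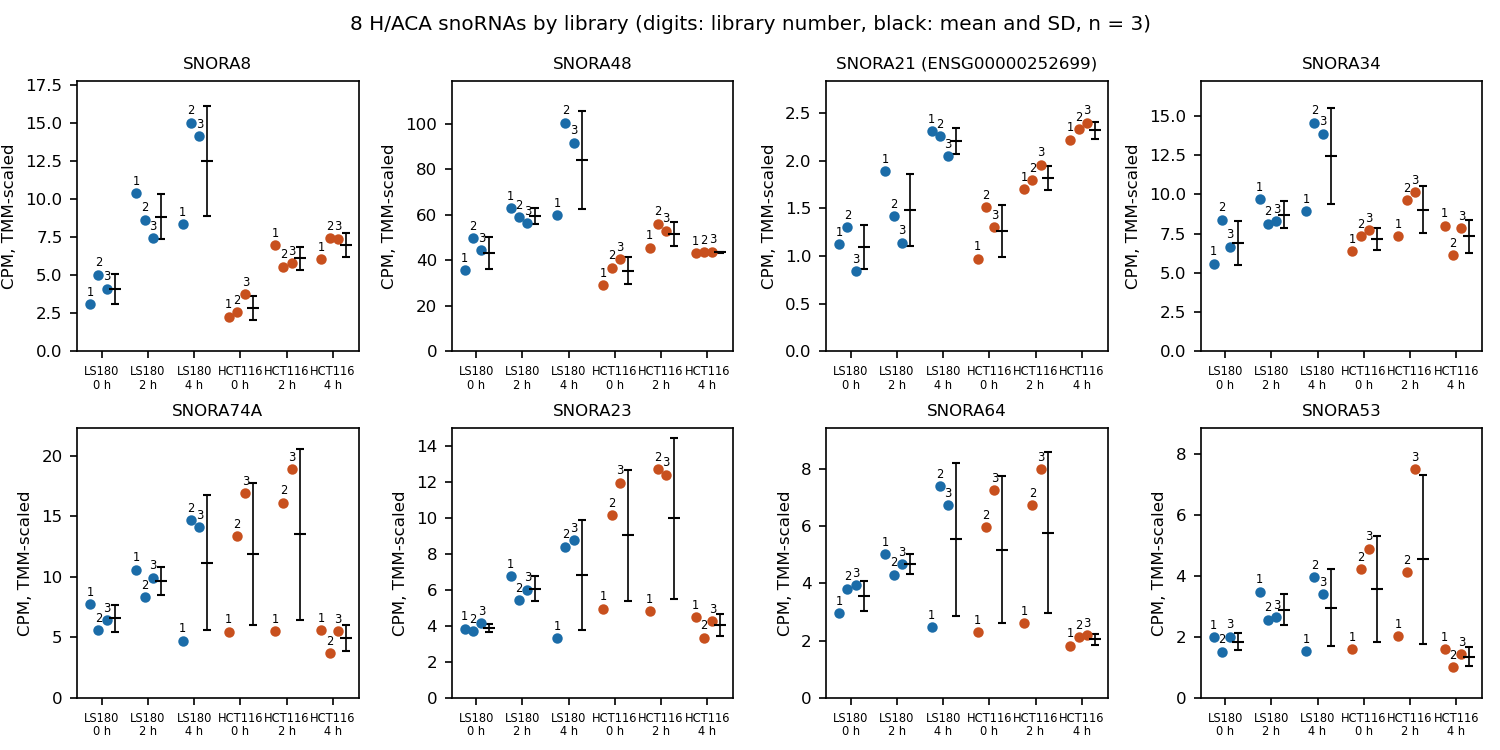
CPM of 8 members (1 panel each, own vertical axis) by line and hours of actinomycin D (horizontal axis), each numbered point 1 library, with the mean and SD of 3 libraries beside them. SNORA8 and SNORA21B (ENSG00000252699) lie higher at 4 h than at 0 h in every library of both lines. SNORA74A, SNORA23, SNORA64 and SNORA53 drop between 2 h and 4 h in the HCT116 libraries numbered 2 and 3 and move less in the one numbered 1.

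Beyond these, LS180 showed a broad shift upward. From 0 h to 4 h, 27 of 65 tested members were called higher and 0 lower, where 26.6% of all genes were called higher and 31.1% lower. The median log2 change was 0.64 over the members and 0.00 over all genes. Of the 53 members that reached the floor in both lines, 25 were called higher and 0 lower, with a median of 0.63. At an unadjusted p under 0.05 edgeR had 36 higher and 0 lower, and DESeq2 called 40 higher and 0 lower. The 5 largest rises among members with a mean of at least 1 CPM were SNORA8, SNORA21B, SNORA48, SNORA54 (0.92, SE 0.24, adjusted p 0.00299) and SNORA34 (0.85, SE 0.18, adjusted p 0.000373), all by edgeR. SNORA34 stood at 5.59, 8.39 and 6.68 CPM at 0 h and at 8.94, 14.6 and 13.9 CPM at 4 h in LS180. Its 4 h libraries were all above its 0 h libraries, the one numbered 1 by little. SNORA54 stood at 9.56, 13.4 and 11.3 CPM at 0 h and at 10.997, 27.2 and 26.4 CPM at 4 h, and here the 4 h library numbered 1 fell among the 0 h values.

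The size of that shift moved with the library. Setting each 4 h library of LS180 against the 0 h library of the same number, the median member ratio was 0.987 for number 1, 1.73 for number 2 and 1.85 for number 3. With the 4 h libraries numbered 2 and 3 left out, 1 library remained at 4 h. The median log2 change was then -0.09 over 67 members and 0.10 over 18090 genes. With the 4 h library numbered 1 left out instead, 57 of 67 members were called higher. The count was 15 without the 4 h library numbered 2 or 3 alone, and 16 without the 0 h library numbered 1. Scaling to ribosomal protein genes moved the median of all genes by -0.54 and left 2 members higher (SNORA8 and SNORA48) and 1 lower (SNORA67), while plain library totals gave 15 higher. SNORA8 and SNORA48 kept their LS180 call at 4 h under all 17 alternatives, at log2 changes of 1.03 to 1.96 and 0.38 to 1.28. SNORA67 was named after its value was seen, and shares of all genes called are not given for these refits.

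Between 2 h and 4 h, in libraries that the membership rule did not use, 6 members were called higher and 0 lower in LS180, where 12.2% of all genes were called higher and 18.5% lower. They were SNORA21B (log2 change 0.57), SNORA57 (0.54), SNORA34 (0.51), SNORA48 (0.50), SNORA76 (ENSG00000266402, 0.38) and SNORA80 (0.37), with adjusted p from 0.0184 to 0.0487 by edgeR. The share of members called higher was below that of all genes, while the member median was 0.39 and 63 of 65 members were above 0. At an unadjusted p under 0.05 edgeR had 17 higher and 0 lower, and DESeq2 called 9 higher and 0 lower. The median ratio of the 4 h to the 2 h library of the same number was 0.709, 1.56 and 1.69 for numbers 1, 2 and 3. Without the 4 h library numbered 1 the count was 34, and without number 2 or number 3, or without both, it was 0. It was also 0 without the 2 h library numbered 3, and 1 without the 2 h library numbered 2. Plain library totals, scaling to ribosomal protein genes and a fit of only these groups each gave 0 as well, and ribosomal scaling brought the member median to 0.04. With no filter on low counts 26 were called. The row named SNORA76 holds the longer noncoding host SNHG25 in release 29, so its counts may not be those of a snoRNA alone.

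After 2 h against 0 h, the number of members called depended on the setting. In LS180, 3 were called higher and 0 lower, where 13.5% of all genes were called higher and 23.9% lower: SNORA8, SNORA48 and SNORA7B (0.52, SE 0.18, adjusted p 0.0346, edgeR). SNORA7B stood at 1.39, 1.495 and 1.58 CPM at 0 h and at 2.33, 2.11 and 1.96 CPM at 2 h, without overlap. At an unadjusted p under 0.05 edgeR had 5 higher and 0 lower, and DESeq2 called 6 higher and 0 lower. Fitted on the 0 h and 2 h LS180 libraries alone, edgeR called 18 higher. It also called 18 without the LS180 4 h libraries numbered 2 and 3, 26 with no filter on low counts and 1 when scaled to ribosomal protein genes. With the replicate number as a block within each line it called 5. The count was 1 without the 0 h library numbered 1 or 3 or the 2 h library numbered 1, and 6 without the 2 h library numbered 2. In HCT116, 3 were called higher and 1 lower at 2 h, where 13.8% of all genes were called higher and 17.1% lower. The higher ones were SNORA8, SNORA48 and SNORA21B (0.53, SE 0.19, adjusted p 0.0414, edgeR). The lower one was SNORA73, a row distinct from SNORA73B with at most 0.143 CPM in any HCT116 library. It reached the floor in LS180 only (11.02 counts against 8.01 in HCT116). It fell by 1.82 on the log2 scale (SE 0.56, adjusted p 0.0193, edgeR), and DESeq2 gave it no adjusted p. These HCT116 counts are small and moved to 1 higher without the 0 h library numbered 1 or the 2 h library numbered 2 or 3. SNORA73 lost its call without the 0 h library numbered 2 or the 2 h library numbered 2 or 3. Of the 53 members that reached the floor in both lines, 3 were called higher and 0 lower at 2 h in each line.

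Some members fell in HCT116 between 2 h and 4 h. In that interval 0 members were called higher and 6 lower, where 4.85% of all genes were called higher and 11% lower. The share of members called lower was near that of all genes, and the member median was -0.36 against 0.02 for all genes. At an unadjusted p under 0.05 edgeR had 0 higher and 14 lower, and DESeq2 called 0 higher and 8 lower. SNORA53, the longest sequence here, stood at 2.02, 4.11 and 7.49 CPM at 2 h and at 1.597, 1.01 and 1.44 CPM at 4 h. Its 4 h libraries were all below its 2 h libraries, and the drop in the libraries numbered 2 and 3 was far larger than in number 1. It fell by 1.74 on the log2 scale (SE 0.44, adjusted p 0.0109, edgeR). SNORA64 stood at 2.61, 6.73 and 7.997 CPM at 2 h and at 1.82, 2.12 and 2.20 CPM at 4 h, and fell by 1.499 (SE 0.42, adjusted p 0.0212, edgeR). Again the 2 h library numbered 1 lay close to the 4 h libraries without overlapping them.

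SNORA74A, known as U19, stood at 5.49, 16.1 and 18.9 CPM at 2 h and at 5.59, 3.72 and 5.49 CPM at 4 h in HCT116. The 2 h library numbered 1 lay within the range of the 4 h libraries. SNORA74A fell by 1.45 on the log2 scale (SE 0.44, adjusted p 0.0308, edgeR). SNORA23 stood at 4.84, 12.7 and 12.4 CPM and then at 4.50, 3.34 and 4.28 CPM, and fell by 1.299 (SE 0.36, adjusted p 0.0185, edgeR). Its 2 h library numbered 1 was just above the highest 4 h library. SNORA21 fell by 1.08 (SE 0.33, adjusted p 0.0333) and SNORA38B, named after its value was seen, by 0.84 (SE 0.24, adjusted p 0.0225), by the same edgeR test. Over the 6, the median ratio of 4 h to 2 h was 0.952 in the libraries numbered 1, 0.289 in those numbered 2 and 0.318 in those numbered 3. Leaving out the 2 h library numbered 3 or the 4 h library numbered 2 took the count to 0, and leaving out the 2 h library numbered 2 or the 4 h library numbered 3 took it to 1. With all 3 HCT116 libraries numbered 1 left out it was 10. Of the 5 tested members of at least 180 bases, 3 were called lower, and of 60 shorter ones also 3. SNORA23, at 182 bases, lies just past that cut. Of the 25 tested members with a mean under 1 CPM, 0 were called lower. Whether length or level bears on these counts was not tested. A box C/D snoRNA had the same library pattern: U3 (SNORD3A) stood at 8106, 12373 and 17890 CPM at 0 h, 6689, 16698 and 14794 CPM at 2 h and 7593, 7115 and 9362 CPM at 4 h in HCT116. U3 makes up most of the box C/D share of counts given above, so it is not a further example. SNORD17 stood there at 97.6, 142 and 136 CPM at 0 h and at 102, 83.1 and 113 CPM at 4 h. SNORD13 went the other way, from 12.4, 21.2 and 20.6 CPM to 34.3, 38.6 and 34.7 CPM.

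From 0 h to 4 h in HCT116, 2 members were called higher (SNORA8 and SNORA21B) and 13 lower, where 26.2% of all genes were called higher and 23.7% lower. The share of members called lower (20%) was below that of all genes, while the member median was -0.39 against 0.02 over all genes. Of the 53 members that reached the floor in both lines, 2 were called higher and 11 lower, with a median of -0.23. Of the 10 tested members that reached it in HCT116 only, where the rule itself favours a fall, 1 was called lower, and their median was -0.98. The 5 largest falls among members of at least 1 CPM were those of SNORA21, SNORA53 (-1.37, SE 0.45, adjusted p 0.0151), SNORA64 (-1.33, SE 0.43, adjusted p 0.0145), SNORA74A (-1.26, SE 0.44, adjusted p 0.0234) and SNORA23 (-1.14, SE 0.36, adjusted p 0.0125), by edgeR. At 0 h SNORA74A stood at 5.48, 13.4 and 16.9 CPM, SNORA64 at 2.31, 5.97 and 7.26 CPM and SNORA53 at 1.59, 4.21 and 4.89 CPM. SNORA23 stood at 4.97, 10.1 and 11.97 CPM. In each the 0 h library numbered 1 was the low one, and for SNORA74A and SNORA53 it overlapped the 4 h libraries. The median member ratio of 4 h to 0 h was 1.01 for number 1, 0.570 for number 2 and 0.796 for number 3. Scaled to ribosomal protein genes, which moved the median of all genes by -0.33, 1 member was higher and 34 lower. The count of 13 became 20 without the 0 h library numbered 1, 7 without the 0 h or the 4 h library numbered 2 and 5 without the 0 h library numbered 3. Without all HCT116 libraries numbered 1 it was 19 of 67 (28.4%), where 22.9% of all genes were called lower.

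The lines differed in these changes. The test of the difference itself (HCT116 change from 0 h to 4 h minus LS180 change) called 0 members higher and 20 lower, where 12.3% of all genes were called higher and 1.33% lower. All 65 tested members lay below 0, with a median of -0.83 against 0.06 over all genes. Of the 53 members that reached the floor in both lines, 16 were called lower, with a median of -0.81. The 10 that reached it in HCT116 only, which the rule pushes towards a lower value here, had a median of -1.96, and 3 were called. At an unadjusted p under 0.05 edgeR had 0 higher and 39 lower, and DESeq2 called 0 higher and 23 lower, with no adjusted p for 17 members. Scaled to ribosomal protein genes the count was 4, and fitted on only the groups compared it was 11. The largest differences in members of at least 1 CPM were those of SNORA53 (-2.05, SE 0.63, adjusted p 0.0354), SNORA74A (-2.01, SE 0.62, adjusted p 0.0362), SNORA64 (-1.95, SE 0.59, adjusted p 0.0324), SNORA23 (-1.94, SE 0.52, adjusted p 0.0148) and SNORA21 (-1.89, SE 0.45, adjusted p 0.00654), by edgeR. In LS180 SNORA74A stood at 7.77, 5.57 and 6.44 CPM at 0 h and at 4.73, 14.7 and 14.1 CPM at 4 h, so that its 4 h libraries lay on both sides of the 0 h ones. SNORA53 stood there at 2.00, 1.51 and 2.01 CPM at 0 h and at 1.52, 3.95 and 3.40 CPM at 4 h, again with number 1 low. Without both LS180 4 h libraries numbered 2 and 3, where the 4 h arm is 1 library and the spread comes from the other groups, the difference was called for 0 members. The 5 values above were then -1.26, -0.94, -0.96, -1.07 and -1.35, with adjusted p from 0.155 to 0.561 by edgeR. Without all HCT116 libraries numbered 1 it was called for 22. It was called for 52 without the LS180 4 h library numbered 1 and for 3 without number 2 or number 3 alone. It was called for 3, 11 and 8 without the LS180 0 h library numbered 1, 2 and 3, and for 4 and 7 without the HCT116 0 h library numbered 2 and 3. For SNORA8, SNORA48 and SNORA21B the difference was -0.32, -0.66 and -0.14, with adjusted p of 0.628, 0.0524 and 0.861 by edgeR.

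**Figure D4:**
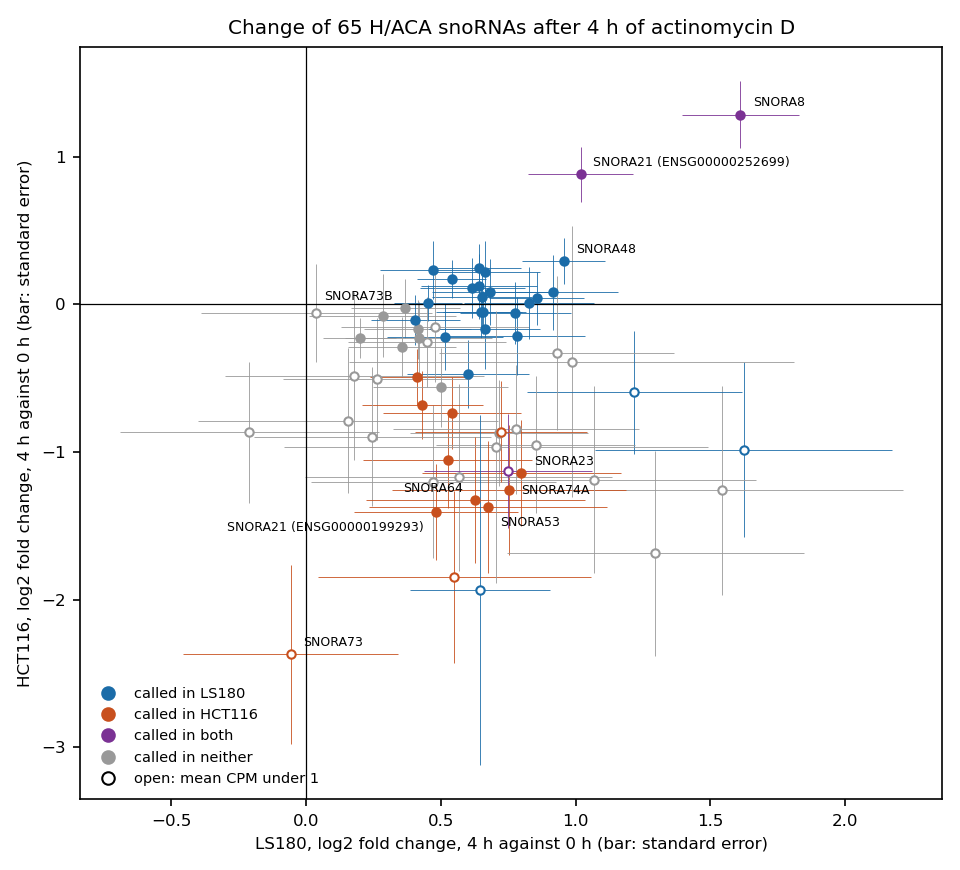
Log2 change from 0 h to 4 h in HCT116 (vertical axis) against that in LS180 (horizontal axis) for the 65 tested members, with bars of 1 standard error, colours for the line in which a member was called, and open symbols for a mean under 1 CPM. All 65 members changed less upward or more downward in HCT116 than in LS180, and SNORA8 and SNORA21B (ENSG00000252699) were called higher in both.

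Levels also differed between the lines. Over the 2 h and 4 h libraries, which the membership rule did not use, 41 of 65 members were lower in HCT116 than in LS180 and 3 were higher, where 43.4% of all genes were called lower and 41.2% higher. The member median was -0.69 on the log2 scale against -0.04 over all genes. Scaled to ribosomal protein genes, which moved the median of all genes by 0.31, 24 were lower and 6 higher. Without the LS180 4 h libraries numbered 2 and 3, 23 were lower and 4 higher, and without the HCT116 libraries numbered 1, 37 were lower and 3 higher. Of the 53 members that reached the floor in both lines, 37 were lower and 2 higher. SNORA73B ran from 432 to 954 CPM with a median of 612 in the 6 treated LS180 libraries and from 241 to 313 CPM with a median of 269 in HCT116, without overlap. Its difference was -1.26 (SE 0.15, adjusted p 1.73e-07, edgeR), and its noncoding host SNHG3 differed by -1.17. At 0 h SNORA73B stood at 468, 660 and 585 CPM in LS180 and at 253, 301 and 264 CPM in HCT116, and it was not called for a change with time in either line.

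SNORA47, in an intron of ZBED3, had the largest called difference among members of at least 1 CPM. It ran from 6.35 to 12.6 CPM with a median of 7.51 in LS180 and from 1.12 to 2.07 CPM with a median of 1.65 in HCT116, without overlap (-2.45, SE 0.17, adjusted p 7.44e-11, edgeR). ZBED3 differed by -1.61 (adjusted p 4.07e-07, edgeR). SNORA54 (-1.19), SNORA77 (-1.09) and SNORA68 (-0.99) followed. Of the members that were higher in HCT116, SNORA31 (ENSG00000253051, SNORA31B in current naming, in TPT1) ran from 1.16 to 2.94 CPM with a median of 1.87 in LS180 and from 3.18 to 5.58 CPM with a median of 3.82 in HCT116 (0.99, SE 0.18, adjusted p 5.12e-05, edgeR). Its host went the other way (-0.30, adjusted p 0.00024, edgeR). The other higher ones were the SNHG25-type SNORA76 row (0.56) and SNORA5C (1.52), a low member at 0.257 to 0.467 CPM in HCT116 that was named after its value was seen and that reached the floor in HCT116 only (19.3 counts against 8.67 in LS180). All 7 differences that the naming rule picked kept their call in all 24 alternatives.

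A further row named SNORA76 (ENSG00000253007, SNORA50B in release 29) was counted almost only in LS180, the line through which it reached the floor (0 h means of 54 and 1.67 counts), so its difference is a description. The 6 treated LS180 libraries held 439 of its counts and the 6 treated HCT116 libraries 3, a ratio per total count of 143 (exact 95% interval 48.7 to 697, counting error only).

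**Figure D5:**
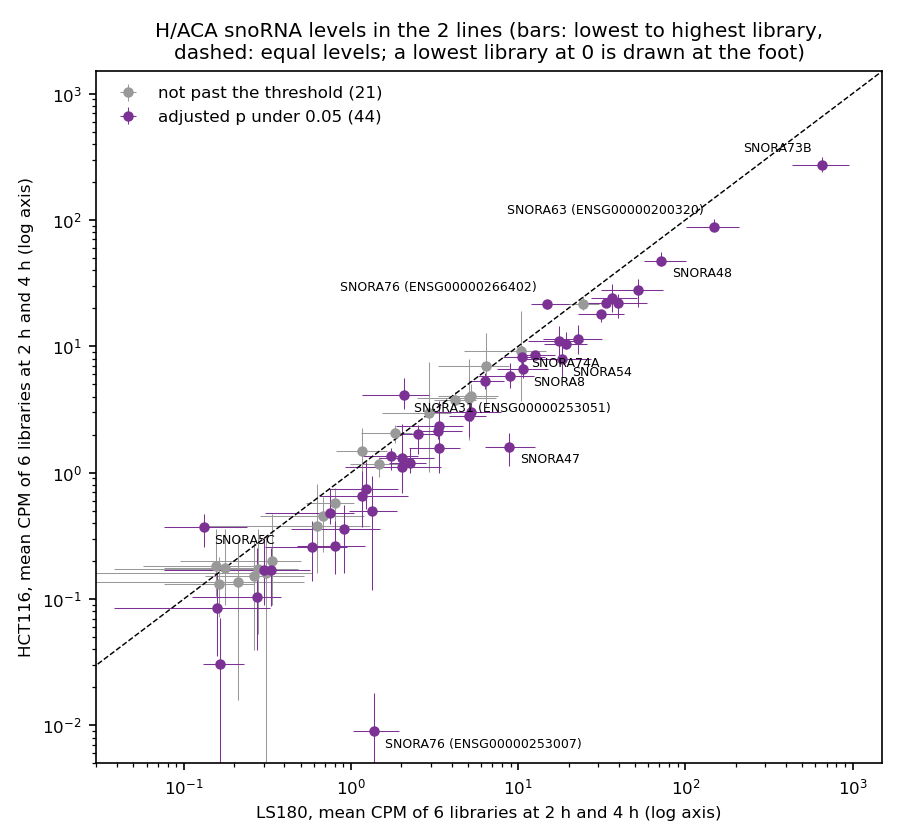
Mean CPM over the 2 h and 4 h libraries in HCT116 (vertical, log axis) against LS180 (horizontal, log axis) for the 65 tested members, with bars from the lowest to the highest library, and colour for the 44 members called and the 21 not called. Most points lie below the line of equal level, with SNORA47 and the SNORA76 row ENSG00000253007 far below it.

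Members and their hosts were compared in 58 members with a tested host (46 host genes). Across genes, the log2 change of a member and of its host from 0 h to 4 h had a Pearson r of 0.27 in LS180 and -0.24 in HCT116. From 2 h to 4 h it was 0.01 and -0.15. For the difference in level between lines it was 0.77, with a Spearman rho of 0.39. That set holds the SNORA76 row ENSG00000253007, which reached the floor through LS180 only, at -6.99 with its host at -5.08. The medians were -0.69 over the tested members and -0.19 over the hosts. How far that pair sets the Pearson r was not tested. Members of 1 host are not independent points, and each value shares its libraries with all others. KANSL2, a subunit of a histone acetyltransferase complex, showed how far an RNA and its host could part: its transcripts fell by 2.05 on the log2 scale from 0 h to 4 h in LS180 (adjusted p 2.46e-15) and by 1.54 in HCT116 (adjusted p 1.1e-13), by edgeR. SNORA34, in its intron, changed by 0.85 and by 0.04, the second not called (adjusted p 0.896). CSKMT, a mitochondrial citrate synthase methyltransferase, fell by 0.72 in LS180 and by 0.92 in HCT116 (adjusted p 1.97e-05 and 1.37e-06, edgeR). SNORA57, which overlaps one of its exons, was at 22.8, 33.9 and 31.5 CPM at 0 h and at 29.5, 51.7 and 58.6 CPM at 4 h in LS180, a rise of 0.66 (SE 0.20, adjusted p 0.00883, edgeR). The 4 h library numbered 1 fell among the 0 h libraries. RPS2 and SLC25A3, the hosts of SNORA64 and SNORA53, rose in HCT116 at 4 h by 0.37 and 0.17 (adjusted p 2.1e-05 and 0.0135, edgeR) while both snoRNAs fell.

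Near-identical copies limit some rows. SNORA7A, in RPL32 (chr3:12840312-12840450, minus strand), and SNORA7B, in RPL32P3 (chr3:129397210-129397348, minus strand), are shown because reads can be shared between them. They match at 137 of 139 positions (98.56%) and differ by G26C and C114T, written as SNORA7A base, position from its 5′ end, and SNORA7B base. Capitals mark the H box match and the ACA.
SNORA7A: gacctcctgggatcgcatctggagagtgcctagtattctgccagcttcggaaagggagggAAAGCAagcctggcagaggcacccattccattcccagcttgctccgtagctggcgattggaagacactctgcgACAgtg
SNORA7B: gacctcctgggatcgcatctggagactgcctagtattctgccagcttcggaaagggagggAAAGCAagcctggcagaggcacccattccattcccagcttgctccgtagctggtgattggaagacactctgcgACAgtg

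SNORA7A was the more abundant, with group means of 9.75 to 21.9 CPM against 1.06 to 2.35 CPM for SNORA7B, and both rose from 0 h to 4 h in LS180 (0.65 each, adjusted p 0.00259 and 0.00543, edgeR). How reads were divided between them rests on the authors' counting, so both are uncertain. SNORA59A and SNORA59B are identical over 152 bases, a pair of SNORA22 rows match at 98.51%, and SNORA73A (not analysed here) matches SNORA73B at 93.2%. The row named SNORA67 spans a longer locus in release 29 (chr17:7572826-7582024, plus strand) that includes SNORA48. In the counting that row had a length of 155 bases, and whether it shares reads with SNORA48 was not tested.

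Genes of the H/ACA particle and of its assembly are set beside the shares of all genes called from 0 h to 4 h, 26.6% higher and 31.1% lower in LS180 and 26.2% and 23.7% in HCT116. Of the particle's 4 genes, 3 rose and 1 fell from 0 h to 4 h in LS180: NHP2 by 0.51, DKC1 by 0.23 and NOP10 by 0.23 on the log2 scale, while GAR1 fell by 0.50 (adjusted p 2.74e-05, 0.0018, 0.0104 and 0.000495, edgeR). In HCT116, 3 rose and 0 fell, with NHP2 at 0.45, NOP10 at 0.27 and DKC1 at 0.22, and GAR1 at -0.09 was not called. Of 12 genes for assembly of the particle, 3 rose and 6 fell in LS180 and 5 rose and 6 fell in HCT116. COIL, the scaffold of Cajal bodies, fell by 2.86 in LS180 and 1.59 in HCT116, and TGS1, which hypermethylates RNA caps, fell by 1.36 and by 0.93. Both are among the genes that fell, and values of the assembly genes that rose are not given here. Of 10 genes for trimming snoRNA 3′ ends, 0 rose and 6 fell in LS180 and 2 rose and 4 fell in HCT116. For comparison, 79 of 82 ribosomal protein genes rose and 1 fell in each line, with medians of 0.58 in LS180 and 0.41 in HCT116. Telomerase RNA (TERC), an H/ACA RNA outside the SNORA names, rose by 0.51 in LS180 (adjusted p 6.81e-05) and by 0.26 in HCT116 (adjusted p 0.0212), by edgeR.

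The other small nucleolar and Cajal body RNAs past the same count floor give the setting. From 0 h to 4 h in LS180, 10 of 22 box C/D snoRNAs were called higher and 1 lower, with a median of 0.72, and 9 of 16 Cajal body RNAs were higher and 0 lower, with a median of 0.73. In HCT116, 1 box C/D snoRNA was higher and 4 lower (median -0.51), and 6 Cajal body RNAs were higher and 1 lower (median 0.10). The H/ACA median of 0.64 in LS180 and -0.39 in HCT116 lay close to the box C/D values. Without the LS180 4 h libraries numbered 2 and 3, the LS180 median was -0.06 over box C/D snoRNAs and 0.35 over Cajal body RNAs. Without the HCT116 libraries numbered 1, the HCT116 counts were 1 and 6 for box C/D snoRNAs and 5 and 1 for Cajal body RNAs. Of all genes, 26.5% were then called higher and 22.9% lower. The difference between classes was not tested.

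The knockdown of Staufen1 could be read for few members. STAU1 stood at 144 and 141 CPM in siCTRL and at 9.70 and 9.17 CPM in siSTAU1, a fall of 3.92 on the log2 scale (adjusted p 2.15e-12, edgeR). These libraries were made from poly(A) RNA, and mature H/ACA snoRNAs carry no poly(A) tail. Of 67 members, 64 were found by identifier, and together they held 338 and 244 counts in siCTRL and 235 and 278 counts in siSTAU1. Between 3 and 4 members reached 10 counts in a given library, and 4 passed the filter. Of these, 0 were called higher and 0 lower, where 23.0% of all 14073 genes were called higher and 23.0% lower. DESeq2 called 0 and edgeR had 0 at an unadjusted p under 0.05. SNORA63 (ENSG00000200320) had 47.3 and 18.6 counts in siCTRL and 8.92 and 24.2 in siSTAU1, and SNORA73B had 50 and 10 against 13 and 30. The groups overlapped for both, and the log2 differences were -0.94 (adjusted p 0.136) and -0.42 (adjusted p 0.584), by edgeR. The other pair were the SNORA67 row and the SNORA76 row that release 29 calls SNHG25, at 0.05 and 0.11 (adjusted p 0.796 and 0.773, edgeR). A change of the snoRNAs with Staufen1 could not be assessed from the few counts that members held in these poly(A) libraries.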

How the data were processed

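Gene tables for 18 actinomycin D libraries (total RNA, hg19) and 4 siRNA libraries (poly(A) RNA, hg38) were used. Reads were handled with cutadapt, STAR 2.7 and RSEM 1.3.1, per the submitters' processing notes, and libraries were stranded, per the labels' protocols. The annotation release of the counting is not given in the sources used here. The deposited values are RSEM expected counts per gene, which the authors did not normalize. They were rounded to whole numbers here.

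Each experiment was fitted across all genes with edgeR 4.0.16 in R 4.3.3 (filterByExpr, TMM scaling, quasi-likelihood test, Benjamini-Hochberg adjustment, threshold 0.05): 17256 genes in 6 groups with 12 residual degrees of freedom, and 14073 genes in 2 groups with 2. Nothing was computed from a model of the members alone. Standard errors are the log2 change divided by the root of the F statistic. Totals ran from 47.8 to 61.4 Mcounts and from 23.7 to 26.7 Mcounts (1e6 expected counts), and intervals cover counting error only. The scripts were tested on simulated data. DESeq2 1.42.0 was an alternative. Others were the size factors (RLE, library totals, TMM without short noncoding RNAs, scaling to ribosomal protein genes), the filter, the groups fitted, a replicate block and leaving out libraries.

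Members were matched by identifier to GENCODE 29 (GRCh38) for names, hosts, coordinates and sequences: 65 of 67 were found. Coordinates are those of that release, not of the hg19 tables. The sequence and position of SNORA74A and the host gene of 1 SNORA76 row are not reported here. The SNORA members and gene lists were chosen with earlier results of these data known. Named members were the 8 most abundant, up to 5 called each way in a comparison with a mean of at least 1 CPM, all called where 5 or fewer were, and members sharing a symbol or host with these. Same-numbered libraries deviated together in HCT116 (Pearson r 0.18 to 0.58 for every pair of times), where the numbers 2 and 3 also correlated with each other (0.12 to 0.30), but not in LS180 (-0.23 to 0.16) or the siRNA groups (-0.06). The labels give only the numbers.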

Additional observations from a re-analysis of the deposited data

Results flagged for a closer look

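The test of the difference between lines in the change from 0 h to 4 h called 20 of 65 tested members. Among all 17256 genes, 12.3% were called higher and 1.33% lower (edgeR quasi-likelihood test, Benjamini-Hochberg adjustment). All 20 had a lower value in HCT116 than in LS180. The 0 h libraries also set the count floor, and 16 of the 20 had reached it in both lines. The log2 difference was -2.05 for SNORA53, -2.01 for SNORA74A, -1.95 for SNORA64, -1.94 for SNORA23 and -1.89 for SNORA21 (ENSG00000199293). In each of these 5 the LS180 4 h library numbered 1 and the HCT116 0 h library numbered 1 were the lowest of their groups. Without both LS180 4 h libraries numbered 2 and 3, which leaves 1 library in that group, the 5 values were -1.35 to -0.94.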

How the results depend on the processing

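Of 778 refits of single named members, 638 kept direction and call, 138 kept direction only and 2 changed sign: SNORA57 (-0.11) and SNORA76 (ENSG00000266402, -0.074) from 2 h to 4 h in LS180, without the LS180 4 h libraries numbered 2 and 3. The counts of members called depended on the setting, and the cause was not tested. The share of all genes called under each setting or left-out library is not given in this section. The number of members tested also changed between fits. The counts therefore do not separate a change in the members from a change in all genes. With no filter on low counts, counts were 26 higher (LS180, 4 h against 2 h), 18 lower (HCT116, 4 h against 2 h), 26 higher (LS180, 2 h against 0 h), 7 higher (HCT116, 2 h against 0 h), 50 higher (LS180, 4 h against 0 h), 4 higher and 28 lower (HCT116, 4 h against 0 h) and 46 lower (difference of change). Scaled to ribosomal protein genes, the same comparisons gave 0, 11, 1, 1 (and 2 lower), 2 (and 1 lower), 1 and 34, and 4, the level between lines 6 higher and 24 lower, and siSTAU1 1 lower. Library totals gave 0 (LS180, 4 h against 2 h) and 15 (LS180, 4 h against 0 h), and RLE 42 in the latter and 6 at 2 h. Fits on only the groups compared gave 0 higher (LS180, 4 h against 2 h), 18 higher (LS180, 2 h against 0 h), 0 lower (HCT116, 2 h against 0 h) and 11 lower (difference of change). DESeq2 and the filter of 1 CPM each gave 6 higher in LS180 and 0 lower in HCT116 at 2 h. Without LS180 4 h libraries 2 and 3, counts were 0, 18 (LS180 2 h), 3 and 1 (LS180 4 h), 23 (levels) and 0 (difference). Without HCT116 libraries numbered 1, they were 10 lower (4 h against 2 h) and 1 higher (2 h). The replicate block within each line gave 5 higher in LS180 at 2 h, and the block changed no other count by over 1.5 times.

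Leaving out 1 library at a time gave 0 to 34 higher (LS180, 4 h against 2 h), 0 to 8 lower (HCT116, 4 h against 2 h), 1 to 6 higher (LS180, 2 h against 0 h), 1 to 3 higher and 0 to 1 lower (HCT116, 2 h against 0 h), 15 to 57 higher (LS180, 4 h against 0 h), 2 to 2 higher and 5 to 20 lower (HCT116, 4 h against 0 h), 3 to 4 higher and 31 to 52 lower (levels), 3 to 52 lower (difference) and 0 to 1 lower (siSTAU1, with the lone library assumed to vary like the other group). RLE moved the median of all genes by 0.12 and library totals by -0.20 in LS180 at 4 h. DESeq2 gave no adjusted p for 15 and 21 members from 2 h to 4 h in LS180 and HCT116, 17 for the difference of change and 1 for HCT116 at 2 h. Depth limits the 27 members under 1 CPM.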
